A study of Mus musculus with 3 samples.

Results

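Proteasome genes were examined in stimulated CD4+ T cells, the helper T cells of the immune system, on 1-colour Agilent arrays. The members were the genes whose symbol starts with Psma, Psmb, Psmc, Psmd, Psme, Psmf or Psmg followed by a digit, without the immunoproteasome genes Psmb8, Psmb9 and Psmb10. Of 54 such symbols in the gene table, 47 had at least 1 probe, out of 20886 genes with a named probe. The other 7 are 6 pseudogenes without a RefSeq transcript and Psme2b. Cells of female C57BL/6 mice aged 8 weeks were taken 2 days after stimulation, with 1 array for wild type (WT), 1 for Dll1-/- and 1 for Rbpj-/- cells (Dll1 KO and Rbpj KO in the plots). Dll1 encodes a Notch ligand on the cell surface, and through the DNA-bound protein Rbpj the activated receptors act on transcription. The sources used here give neither the stimulus, nor the cells that carried each deletion, nor the number of mice behind a sample. With 1 array per genotype there is no replicate, no test between genotypes and no p-value, and every comparison below describes 3 arrays.

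The proteasome degrades proteins tagged with ubiquitin. Its 20S core is a barrel of alpha subunits (Psma genes), which gate the entry, and beta subunits (Psmb genes), of which Psmb5, Psmb6 and Psmb7 carry the active sites. The 19S cap, built of ATPases (Psmc genes) that unfold substrates and non-ATPase subunits (Psmd genes) that bind and deubiquitinate them, sits on the core, and other caps (Psme genes), an inhibitor (Psmf1) and assembly chaperones (Psmg genes, Psmd5, Psmd9 and Psmd10) act on it. In T cells activation brings growth and high protein turnover, and interferon gamma induces Psme1, Psme2 and the immunoproteasome subunits that replace the active beta subunits for antigen processing.

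A level is the log2 processed signal of a probe minus the array's 75th percentile, averaged over the gene's probes, so a level of 0 lies at that percentile. Levels of different genes come from different probes, so their order is only a rough guide to abundance, used here to pick out bright genes and to sum markers. Of the 47 members, 45 had a probe well above background on all 3 arrays, 35 of them in the top tertile of genes by level, and 11 had more than 1 probe. Psmb11, the beta subunit of thymic epithelium, was well above background on 0 of 3 arrays. Psma8, a testis alpha subunit, was well above background on the WT array only, at a level of -0.13 against -5.48 in Dll1-/- cells and -5.28 in Rbpj-/- cells. As bounds, Dll1-/- was at least 10.4-fold lower and Rbpj-/- at least 8.15-fold lower, from 1 probe among the lower-numbered rows of the array. There the WT signal of 671 probes was 2-fold or more above each knockout, while the higher-numbered rows held 11 such probes. The other arrays also had more such probes there, 455 against 68 for Dll1-/- and 495 against 277 for Rbpj-/- cells. The part of position in the Psma8 value was not tested.

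On the 3 arrays 46.6% to 50.1% of 55678 probes were well above background, and the 75th percentile of the log2 signal was 7.47 in WT, 7.28 in Dll1-/- cells and 7.14 in Rbpj-/- cells. All 8 T cell markers, Cd4 among them, were well above background on each array. Their summed linear level was 774 in WT, 756 in Dll1-/- cells and 834 in Rbpj-/- cells. Cd4, at log2 levels of 1.9, 1.9 and 2.3, made up a small part of these sums. The B cell markers summed to 24.2, 23.1 and 17.7 in the same order, with 4, 6 and 5 of 6 detected, and the CD8 T cell pair Cd8a and Cd8b1 to 1.23, 1.21 and 0.80. Macrophage markers summed to 1.26, 1.27 and 1.40, with 2, 2 and 1 of 6 detected. NK cell markers summed to 2.12, 2.50 and 2.90, with 2, 3 and 3 of 5 detected. Most of these sums came from Csf1r and Klrd1 alone. The NK cell marker Tyrobp stood at 1.11 in Dll1-/- cells and -0.24 in Rbpj-/- cells relative to WT, so it did not follow the sum. Of the 6 dendritic cell markers Siglech alone was bright, at 9.07, 9.22 and 9.26, and Flt3, Itgax and Zbtb46 were not well above background on any array. Fewer cells of a type and less RNA per cell cannot be told apart in these samples. On all 3 arrays Dll1 itself was too dim to be well above background, so it does not check the label of the Dll1-/- cells. Rbpj stood at 0.28 in Dll1-/- cells and at -0.50 in Rbpj-/- cells relative to WT. It was well above background on all 3 arrays, that of the Rbpj-/- cells included, and its probes' place relative to the deletion is not known here.

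The first question was how these genes stood in cells labelled as lacking the ligand. Proteasome genes were slightly lower in Dll1-/- cells, with 38 of 45 below WT and 7 above, against 55.7% and 44.3% of 11811 measured genes. Of the 3937 genes in the top tertile by level, 62.2% were below WT. After quantile normalization 27 of 45 members were below WT, against 50.3% of all genes. With the reported scaling the median log2 difference of the members was -0.11, against -0.03 for all measured genes and -0.04 for that top tertile. The members lay close together, with an interquartile range of 0.13 against 0.25 for all genes and 0.18 for that top tertile. At least 1.1-fold lower were 15 of 45, against 27.4% of all genes. Psmf1 alone was 1.5-fold apart or more (1 of 45, against 4.2% of all genes, of which 2.25% were lower and 1.95% higher). Past 2-fold were 0 members, against 0.745% of all genes lower and 0.373% higher.

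The second question concerned cells labelled as lacking the shared effector of Notch receptors. Here 44 of 45 members were below WT, against 60.2% of 11578 genes and 74.5% of the 3860 genes in the top tertile by level. After quantile normalization 33 of 45 members were below WT, against 47.7% of all genes. With the reported scaling the median of the members was -0.23, against -0.07 for all genes and -0.13 for the top tertile. The interquartile range was 0.19 against 0.38 for all genes. Of the 45 members 35 were 1.1-fold lower or more, against 40.3% of all genes. Past 1.5-fold were Psmf1 and Psmc3ip, both lower (4.44%, against 11.8% of all genes, of which 6.91% were lower and 4.86% higher). Past 2-fold was Psmf1, where 2.15% of all genes were lower and 1.38% higher. Psme4 was the 1 member above WT, where 39.8% of all genes were, and it was below WT under both spike-in scalings. Both comparisons share the WT array, so they are not independent, and the values of each are given side by side below.

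**Figure D1:**
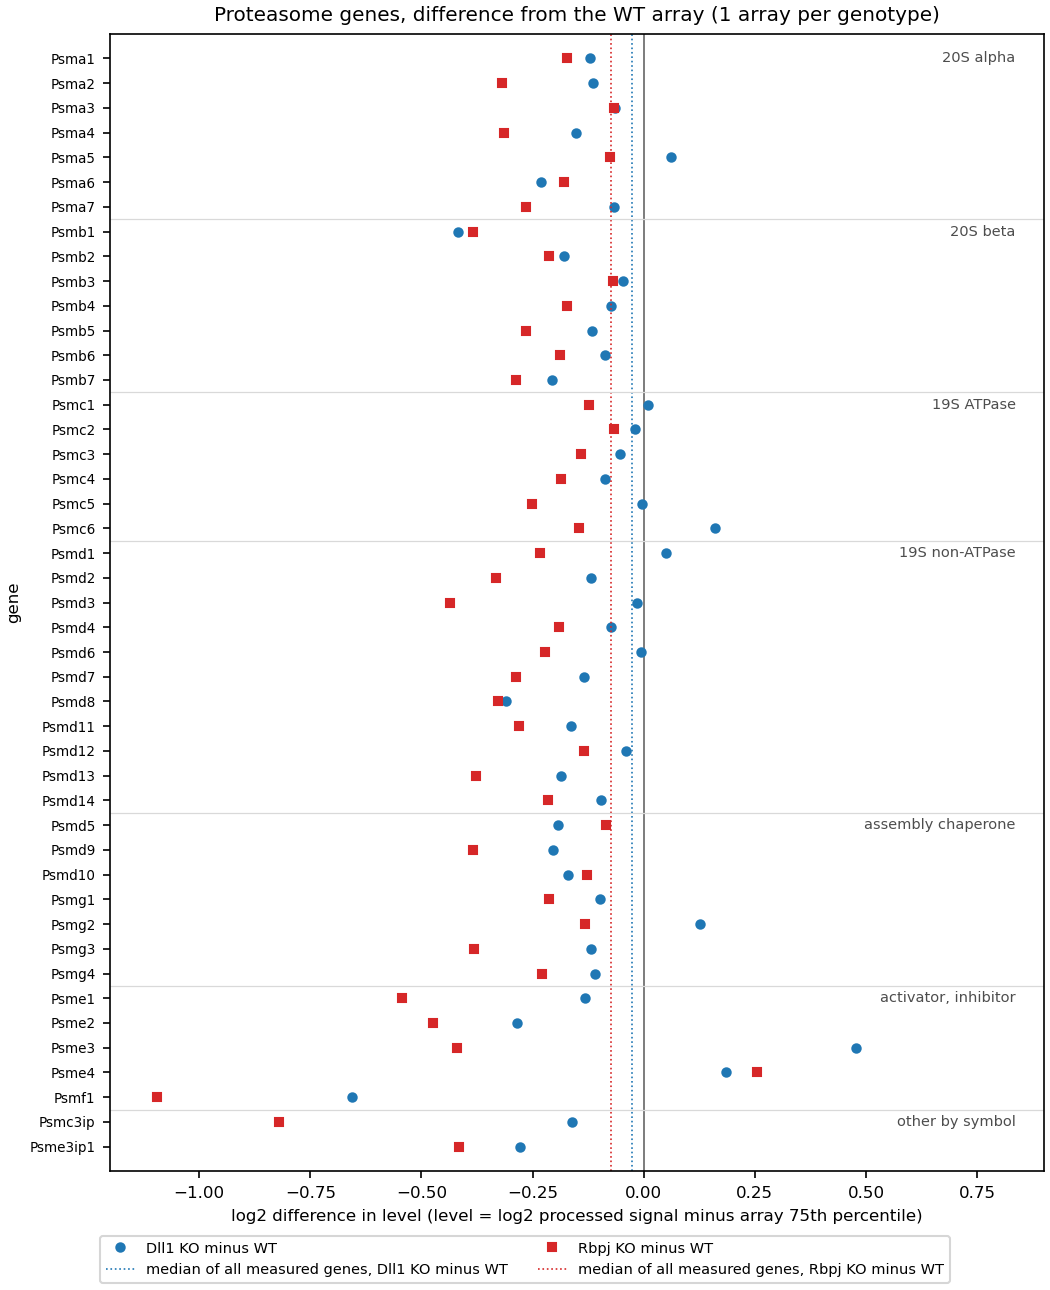
The log2 difference in level from the WT array (x axis) is plotted for each of the 45 proteasome genes measured on all arrays (y axis, grouped by role), with circles for Dll1-/- cells, squares for Rbpj-/- cells and dotted lines for the median of all measured genes. Most squares lie left of the circles between 0 and -0.44, and of these 45 genes Psmf1, at -0.66 and -1.09, lies farthest left in both.

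**Figure D2:**
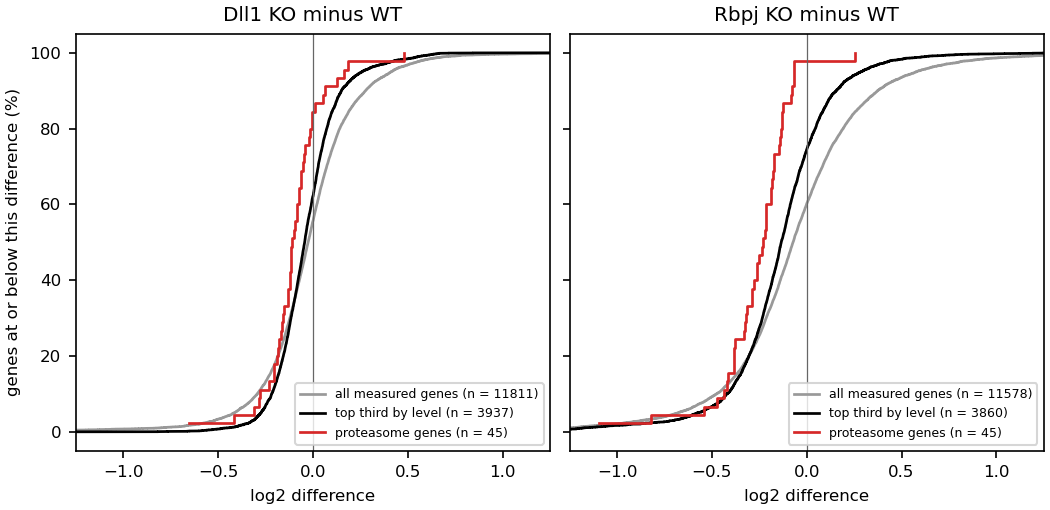
Each curve gives the percentage of genes at or below a log2 difference (x axis), for all measured genes, for the top tertile by level and for the 45 proteasome genes, with Dll1-/- cells on the left and Rbpj-/- cells on the right. The proteasome curve runs left of the others through its middle and upper range and crosses 50% at -0.11 and -0.23, and a few genes at either end of the wider distributions fall outside the axis.

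The size of these shifts depends on how the arrays are put on 1 scale. After normexp background correction with quantile normalization, which gives the 3 arrays 1 distribution of values, the median of the members was -0.024 in Dll1-/- cells and -0.056 in Rbpj-/- cells. On that scale 50.3% and 47.7% of all genes were below WT. Scaling to the E1A spike-in spots moved the median of all genes to -0.19 and -0.66, and that of the members to -0.28 and -0.81. Scaling to each array's median gave -0.15 and -0.39 for the members, with -0.07 and -0.24 for all genes. These scalings and the reported one each subtract a constant from each array. The distance of the members from the median gene is therefore -0.08 and -0.16 under all of them by construction, so they are no check on it. After quantile normalization, which can change it, that distance was -0.023 and -0.067. The medians of the members were below 0 under each of these scalings, and their size changed. With no filter on dim probes the median of all genes was -0.11 in Dll1-/- cells, the same as that of the members, so there the members stood apart from the median gene only with the filter.

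**Figure D3:**
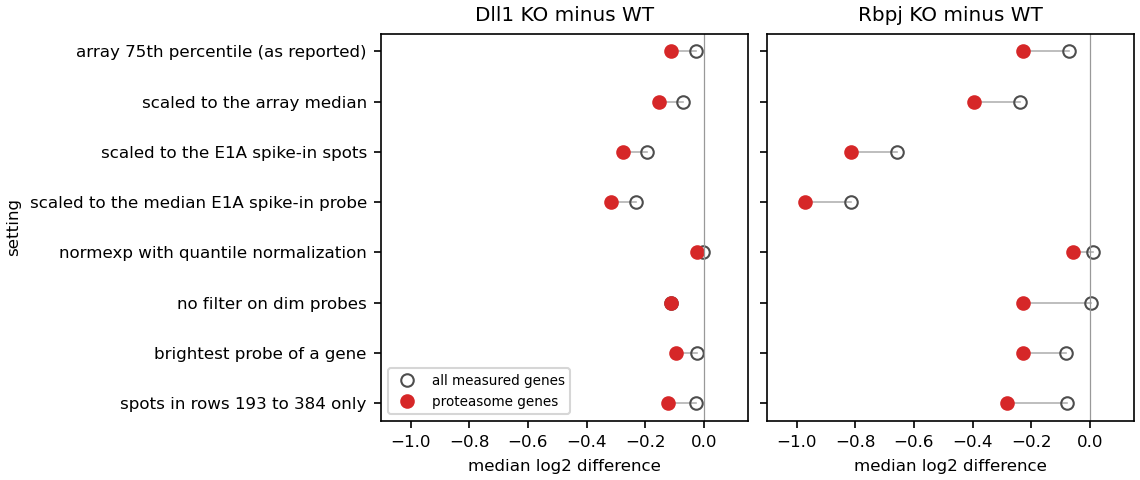
Median log2 differences from WT (x axis) over all measured genes (open circles) and over the proteasome genes (filled circles) are plotted for the reported scaling and 7 alternatives (y axis), with Dll1-/- cells on the left and Rbpj-/- cells on the right. The filled circle lies left of the open one, by -0.08 and -0.16 as reported and by -0.023 and -0.067 after quantile normalization, except in Dll1-/- cells with no filter on dim probes, where both lie at -0.11. Scaling to the array median or to the spike-ins moves both circles alike by construction.

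Precision came from repeats within an array only. Probes printed several times and well above background had a median SD between spots of 0.06 log2 for WT and Dll1-/- cells and 0.07 for Rbpj-/- cells. Psme1 is the member printed repeatedly, with 10 spots per array, at levels of 7.16 ± 0.03 in WT, 7.03 ± 0.02 in Dll1-/- cells and 6.62 ± 0.03 in Rbpj-/- cells (SD over 10 spots). Its spots ranged from 7.10 to 7.20, 6.99 to 7.07 and 6.58 to 6.70 in the same order, and the ranges of other repeated probes were not compared. Spots of 1 array share 1 RNA sample, so these ranges cover spot error and not the spread between mice. For the 11 members with more than 1 probe, the differences by single probes lay a median of 0.13 log2 apart in Dll1-/- cells and 0.11 in Rbpj-/- cells, as large as many of the Dll1-/- differences themselves. In Dll1-/- cells the probes of Psmc1, Psmc2 and Psmc3 pointed opposite ways, and in Rbpj-/- cells those of 0 members did. Over all genes with more than 1 probe, 1198 of 2868 did so in Dll1-/- cells and 1039 of 2809 in Rbpj-/- cells. The median gap over all such genes was 0.17 and 0.21.

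Beside the counts by class below, 55.7% of all measured genes were below WT in Dll1-/- cells and 60.2% in Rbpj-/- cells. In the top tertile by level these shares were 62.2% and 74.5%, and after quantile normalization 50.3% and 47.7% of all genes were. Alpha ring genes differed little. Of the 7 measured genes 6 were below WT in Dll1-/- cells and 7 in Rbpj-/- cells, with medians of -0.11 and -0.18, and 4 and 5 after quantile normalization. Psma2, a ring subunit, stood at 7.08 in WT, 6.96 in Dll1-/- cells and 6.76 in Rbpj-/- cells. That is a difference of -0.11 and -0.32, and 0.08 and -0.03 after quantile normalization. Psma6 had its lowest value in Dll1-/- cells, at 4.28, 4.05 and 4.11 in the order WT, Dll1-/-, Rbpj-/-. Psma5 was the alpha gene above WT in Dll1-/- cells, at 0.06, but at -0.14 under scaling to the median spike-in probe.

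All 7 measured beta genes were below WT in both knockouts, with medians of -0.12 and -0.21, but 4 of 7 in each after quantile normalization. The active-site genes were among them. Psmb5, the chymotrypsin-like subunit, stood at 6.12 in WT, 6.00 in Dll1-/- cells and 5.85 in Rbpj-/- cells. Both of its probes were below WT in both knockouts, at -0.07 and -0.16 in Dll1-/- cells and -0.24 and -0.28 in Rbpj-/- cells. Psmb6, the caspase-like subunit, read 6.93, 6.84 and 6.74 in the same order. Psmb7, the trypsin-like subunit, read 3.18, 2.98 and 2.90. Each of the 3 was highest in WT and lowest in Rbpj-/- cells, an order that quantile normalization did not keep for any of them. There Psmb6 was above WT in both, at 0.066 and 0.040. Psmb5 was at -0.040 in Dll1-/- and -0.024 in Rbpj-/- cells, and Psmb7 at -0.14 and -0.10, so both were lowest in Dll1-/- cells.

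The promoters of Psmb5 and Psmb6 are shown because both hold the antioxidant response element core, TGACNNNGC, which Nfe2l1 (Nrf1) uses to raise proteasome genes when degradation falls short. Sequences are from RefSeq on GRCm38.p6, from 250 bases before to 50 after the annotated start, with matched motifs in capitals (chr14:54617946-54618245, minus strand for Psmb5 and chr11:70525107-70525406, plus strand for Psmb6).
Psmb5: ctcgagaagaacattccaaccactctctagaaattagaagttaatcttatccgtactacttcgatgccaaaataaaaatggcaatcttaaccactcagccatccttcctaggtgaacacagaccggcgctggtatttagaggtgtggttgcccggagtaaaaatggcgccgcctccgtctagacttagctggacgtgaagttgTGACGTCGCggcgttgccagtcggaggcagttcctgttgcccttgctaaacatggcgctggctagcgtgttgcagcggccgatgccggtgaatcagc
Psmb6: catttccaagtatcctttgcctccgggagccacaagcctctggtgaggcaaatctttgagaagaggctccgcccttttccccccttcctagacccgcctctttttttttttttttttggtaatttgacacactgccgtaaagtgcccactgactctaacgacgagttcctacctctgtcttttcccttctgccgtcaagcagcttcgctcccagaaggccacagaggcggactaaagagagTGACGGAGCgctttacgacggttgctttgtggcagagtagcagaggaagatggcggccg
The 5 motifs were searched on both strands in promoters of this length, where matches of different motifs may share letters, and a match is a description and not a binding site. At least 1 match of TGACNNNGC was found for 6 of 39 members with a promoter entry, against 12.4% of all 32851 promoters. The NF-Y box CCAAT was found for 15 of 39, against 37.4% of all promoters. The core TGGGAA, which Rbpj binds, was found for 9 of 39, against 25.6% of all. The GAS letters TTCNNNGAA were found for 2 of 39 (Psmd2 and Psmg1), against 8.3%, and the interferon-stimulated response element for 5 of 39 (Psmb3, Psmd4, Psmd9, Psme1 and Psmg4), against 3.44%. Some members have more than 1 promoter entry, so their shares by gene are not on the same footing as the share of all promoters.

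Psmb1, a beta subunit without an active site, had the lowest Dll1-/- value of the core subunits. It stood at 4.65 in WT, 4.23 in Dll1-/- cells and 4.27 in Rbpj-/- cells, from 1 probe. The difference was -0.42 and -0.38, so both knockout arrays were below WT and 0.03 from each other. After quantile normalization both were still below WT, at -0.38 and -0.18, but 0.20 apart. Psmb1 lies near Dll1 on chromosome 17, with only Fam120b between them among protein-coding genes of the reference table. Fam120b stood at 0.35 in Dll1-/- cells and 0.53 in Rbpj-/- cells, and beyond Psmb1 the TATA-binding protein gene Tbp stood at 0.25 and 0.25. Other genes near Dll1 lay on either side of WT, with Pdcd2 at -0.22 and -0.35 and Ermard at 0.43 and -0.16. The probes of Ermard disagreed, since its brightest probe gave 0.17 and 0.18, so its sign in Rbpj-/- cells depends on the probe.

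The 6 ATPases of the 19S base lay near WT in Dll1-/- cells, at a median of -0.01, with 4 of 6 genes lower. Psmc1 and Psmc6 were the ATPase genes above WT there, at 0.01 and 0.16, though under scaling to the median spike-in probe they were at -0.20 and -0.04. In Rbpj-/- cells 6 of 6 were below WT, with a median of -0.14, but 3 of 6 after quantile normalization, with a median of 0.015. In Dll1-/- cells that setting left 2 of 6 below WT, with a median of 0.041. Psmc5 stood at 4.34 in WT, 4.34 in Dll1-/- cells and 4.09 in Rbpj-/- cells, so only the Rbpj-/- array was apart. Psmc6 read 2.34, 2.50 and 2.19, which put it at 0.31 lower in Rbpj-/- cells than in Dll1-/- cells on the log2 scale.

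Non-ATPase subunits of the cap had medians of -0.10 in Dll1-/- cells, with 10 of 11 below WT, and -0.28 in Rbpj-/- cells, with 11 of 11 below, and 6 and 9 of 11 after quantile normalization. The exception in Dll1-/- cells was Psmd1, the large scaffold of the base, at 0.05, and at -0.15 under scaling to the median spike-in probe. Psmd3, a lid scaffold subunit, stood at 6.18 in WT, 6.16 in Dll1-/- cells and 5.74 in Rbpj-/- cells. Its Rbpj-/- difference of -0.44 was the lowest among the 31 core and cap subunits. After quantile normalization it was -0.15 and no longer the lowest, with Psmd11 at -0.22 and Psmd8 at -0.20. Psmd8, another lid subunit, read 3.09, 2.79 and 2.77, lower by about the same amount in both knockouts (-0.31 and -0.33).

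Of the assembly chaperones 6 of 7 were below WT in Dll1-/- cells (median -0.12) and 7 of 7 in Rbpj-/- cells (median -0.21), and 6 of 7 in each after quantile normalization. Psmg2, which pairs with Psmg1 in alpha ring assembly, was the exception in Dll1-/- cells, at 3.42 in WT, 3.55 in Dll1-/- cells and 3.29 in Rbpj-/- cells. Its Dll1-/- difference of 0.13 was -0.08 under scaling to the median spike-in probe. Psmd9, a chaperone of the ATPase ring, read -0.23, -0.44 and -0.62. Its probes gave -0.35 and -0.06 in Dll1-/- cells and -0.45 and -0.31 in Rbpj-/- cells. Psmd5, which acts in the same step, differed from WT by -0.19 in Dll1-/- cells and by -0.08 in Rbpj-/- cells.

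The 5 regulators ranged from -0.66 to 0.48 in Dll1-/- cells and from -1.09 to 0.26 in Rbpj-/- cells. Their interquartile range was 0.47 and 0.12, against 0.11 and 0.13 for the 31 core and cap subunits. Psmf1, which encodes the inhibitor PI31, had the lowest difference from WT among the 45 members measured on all arrays, in both knockouts. Its signal was 164 in WT, 91.4 in Dll1-/- cells and 61.4 in Rbpj-/- cells, or levels of -0.11, -0.77 and -1.21. Relative to WT it was 1.58-fold lower in Dll1-/- cells and 2.14-fold in Rbpj-/- cells. After quantile normalization the differences were -0.33 and -0.59, the second lowest of the 45 members, after Psmb1 in Dll1-/- and Psmc3ip in Rbpj-/- cells. They rest on 1 dim probe among the higher-numbered rows. The promoter of Psmf1 (chr2:151741261-151741560, minus strand) is shown because of this difference, and none of the 5 motifs was matched in it.
Psmf1: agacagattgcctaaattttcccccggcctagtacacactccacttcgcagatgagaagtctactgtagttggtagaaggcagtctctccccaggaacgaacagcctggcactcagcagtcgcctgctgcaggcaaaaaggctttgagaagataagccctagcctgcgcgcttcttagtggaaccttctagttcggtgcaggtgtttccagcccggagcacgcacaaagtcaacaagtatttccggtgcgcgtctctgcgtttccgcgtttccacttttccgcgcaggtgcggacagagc

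Psme3 was the member whose knockouts differed most from each other. It encodes PA28 gamma, a nuclear cap that opens the core without ubiquitin. Its level was 3.02 in WT, 3.50 in Dll1-/- cells and 2.60 in Rbpj-/- cells, so WT lay between the knockouts. The difference from WT was 0.48 in Dll1-/- cells and -0.42 in Rbpj-/- cells, and both signs were kept after quantile normalization (0.59 and -0.23) and under scaling to the median spike-in probe (0.27 and -1.16). The value comes from 1 probe, among the lower-numbered rows, and the part of position in it was not tested. Psme4, the cap PA200, was above WT in both, at -0.17 in WT, 0.01 in Dll1-/- cells and 0.08 in Rbpj-/- cells. Its probes gave 0.25 and 0.12 in Dll1-/- cells and 0.42 and 0.09 in Rbpj-/- cells, but under scaling to the median spike-in probe the gene stood at -0.02 and -0.49. The promoter of Psme3 (chr11:101315963-101316262, plus strand) holds 1 CCAAT box, read on the opposite strand.
Psme3: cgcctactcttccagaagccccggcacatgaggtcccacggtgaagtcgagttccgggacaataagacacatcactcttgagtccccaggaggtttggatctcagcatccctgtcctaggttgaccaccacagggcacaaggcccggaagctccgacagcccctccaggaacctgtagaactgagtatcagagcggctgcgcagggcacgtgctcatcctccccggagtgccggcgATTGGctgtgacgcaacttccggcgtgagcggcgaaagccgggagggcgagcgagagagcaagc

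Psme1 and Psme2, the interferon-inducible subunits of the cap PA28, were lower in Rbpj-/- cells than the core was. Psme1 differed from WT by -0.13 in Dll1-/- cells and by -0.54 in Rbpj-/- cells. Psme2 stood at 6.94 in WT, 6.66 in Dll1-/- cells and 6.47 in Rbpj-/- cells. Its probes gave -0.39 and -0.18 in Dll1-/- cells and -0.55 and -0.40 in Rbpj-/- cells. After quantile normalization the Rbpj-/- differences were -0.32 for Psme1 and -0.35 for Psme2, against a median of -0.056 over the members. In Dll1-/- cells Psme1 was then at -0.024 and Psme2 at -0.21. Their promoters (chr14:55578244-55578543, plus strand for Psme1 and chr14:55590972-55591271, minus strand for Psme2, the latter 1 of 2 entries) both hold TGGGAA. That of Psme1 also holds an interferon-stimulated response element just after the start. The other Psme2 entry holds no match of any motif searched. TGGGAA was found for 9 of 39 members, against 25.6% of all promoters, and a link between this motif and the Rbpj-/- differences was not tested.
Psme1: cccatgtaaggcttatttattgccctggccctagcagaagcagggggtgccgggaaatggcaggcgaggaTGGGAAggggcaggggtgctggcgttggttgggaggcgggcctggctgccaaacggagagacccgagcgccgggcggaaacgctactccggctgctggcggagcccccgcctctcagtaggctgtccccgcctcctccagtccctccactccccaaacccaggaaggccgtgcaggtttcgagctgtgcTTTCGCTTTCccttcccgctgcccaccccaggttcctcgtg
Psme2: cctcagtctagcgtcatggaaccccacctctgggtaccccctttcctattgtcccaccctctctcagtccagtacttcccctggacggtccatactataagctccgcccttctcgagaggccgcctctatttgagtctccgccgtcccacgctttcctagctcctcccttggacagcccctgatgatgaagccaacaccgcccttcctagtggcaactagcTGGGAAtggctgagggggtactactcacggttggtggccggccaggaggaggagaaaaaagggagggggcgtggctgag
The immunoproteasome genes, left out of the members, were also below WT in both. Psmb8 differed by -0.24 in Dll1-/- cells and -0.57 in Rbpj-/- cells, Psmb9 by -0.22 and -0.51, and Psmb10 by -0.27 and -0.59. A list of 19 measured interferon-inducible genes had medians of -0.20 and -0.67, with 19 and 18 below WT, against 55.7% and 60.2% of all genes. The B cell and CD8 T cell marker sums given above were lower in Rbpj-/- cells too, and their part in these values was not tested.

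**Figure D4:**
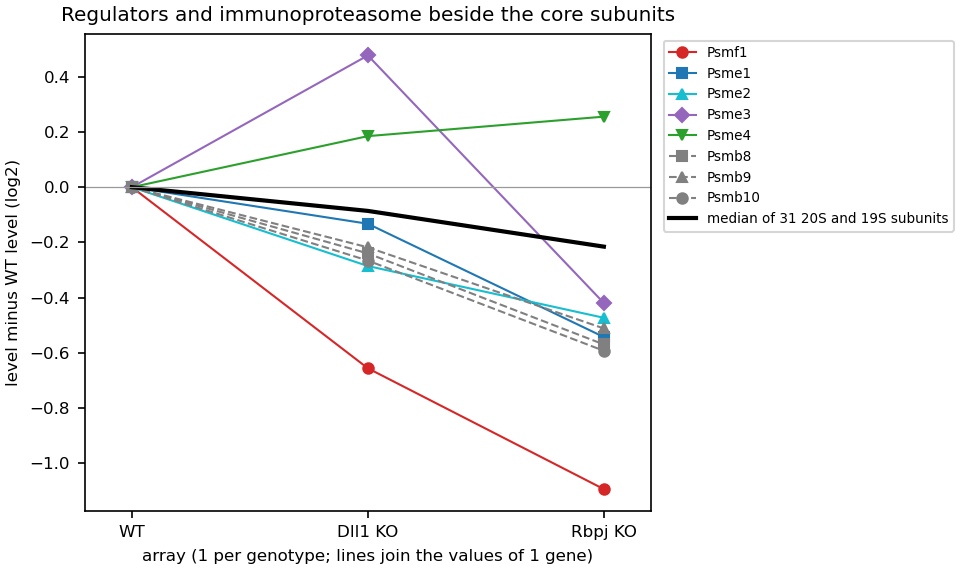
The level minus the WT level (y axis, log2) is plotted on each of the 3 arrays (x axis, 1 array per genotype) for the regulators, for the immunoproteasome genes (dashed grey) and for the median of 31 core and cap subunits (black). The median ends at -0.22 in Rbpj-/- cells, with Psme1, Psme2 and the immunoproteasome genes between -0.47 and -0.59 and Psme3 on opposite sides of WT in the knockouts.

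The symbols Psmc3ip and Psme3ip1 matched the rule although their products are not proteasome subunits. Psmc3ip, a partner of Psmc3 known for its work in meiotic recombination, stood at 0.84 in WT, 0.68 in Dll1-/- cells and 0.02 in Rbpj-/- cells. Its Rbpj-/- difference of -0.82 was the second lowest of the members, and -0.62 after quantile normalization. Psme3ip1, which binds Psme3, read 1.77, 1.49 and 1.36. Without both, the medians were -0.10 in Dll1-/- cells and -0.22 in Rbpj-/- cells.

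The knockouts were also compared with each other, using the same arrays as above. In Rbpj-/- cells 40 of 45 members were below their Dll1-/- level, with 20 at least 1.1-fold lower, against 55.1% and 33.5% of 11794 genes, and with a median of -0.13 against -0.03. In the top tertile by level 66.2% of genes were below, with a median of -0.08. After quantile normalization 29 of 45 members were below and 15 above, where 45.6% of all genes were below. The median of the members was then -0.027. At least 1.5-fold apart were Psme3 (-0.90) and Psmc3ip (-0.66), both lower in Rbpj-/- cells, against 11.6% of all genes (6.34% lower and 5.24% higher), followed by Psmf1 at -0.44. Past 2-fold were 0 members, against 2.61% of all genes lower and 1.55% higher. The 5 members above their Dll1-/- level, where 44.9% of all genes were, were Psmd5 (0.11), Psme4 (0.07), Psma6 (0.05), Psmd10 (0.04) and Psmb1 (0.03). Under scaling to each array's median 45 of 45 were lower, those 5 included, against 71.7% of all genes.

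Other genes of the pathway did not all go with the subunits. Of 10 measured partners and cofactors of the proteasome, 5 were below WT in Dll1-/- cells (median 0.04) and 7 in Rbpj-/- cells (median -0.10). Of all genes 55.7% and 60.2% were below WT, which also holds for the lists that follow. In Rbpj-/- cells the lowest were Uchl5, a deubiquitinase of the cap, at -0.48, and Pomp, the maturation factor of the core, at -0.45, followed by the deubiquitinase gene Usp14 at -0.35. The probes of the last 2 disagreed, since their brightest probes gave -0.13 for Pomp and -0.11 for Usp14, while Uchl5 stayed at -0.48. Genes that control proteasome supply had medians of -0.01 and -0.07 over 10 genes. Among them Nfe2l1 stood at 0.36 in Dll1-/- cells and -0.14 in Rbpj-/- cells, or 0.19 and 0.026 after quantile normalization. Of 12 genes of ubiquitin supply and shuttling, 9 were below WT in each, with medians of -0.08 and -0.14, and Rad23b, a shuttle for ubiquitinated proteins, was at 0.01 and -0.54. Passing 1.5-fold were 0 genes of these 3 lists in either comparison with WT, against 4.2% of all genes in Dll1-/- cells and 11.8% in Rbpj-/- cells.

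Other large assemblies gave a scale for the size of these differences. The 8 subunits of the chaperonin CCT, which folds actin and tubulin, had medians of -0.07 in Dll1-/- cells and -0.30 in Rbpj-/- cells, with Tcp1 at -0.62 in the latter. Ribosomal protein genes, 35 measured, had medians of -0.15 and -0.11. Cell division genes, 17 measured, had medians of 0.01 and -0.46, with 17 of 17 below WT in Rbpj-/- cells, where 60.2% of all genes were. The proteasome medians of -0.11 and -0.23 lay inside the span of these lists in both knockouts, and no difference between lists was tested.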

How the data were processed

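Members and gene lists were chosen with earlier results of these data known. The authors deposited 1 scanner file per array, with a linear processed signal intensity that Feature Extraction 10.7.1.1 had corrected for background, per the file headers, and a log2 table. Each entry of the deposited log2 table was within 0.01 of the log2 processed signal shifted by -7.47 (WT), -7.28 (Dll1-/-) or -7.14 (Rbpj-/-), so higher means brighter and genes were not centred. Medians of its columns were -3.44, -3.40 and -3.28. The 3 arrays lie on 1 slide, with 1 scan time, per the file headers.

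Outlier spots (139 to 163 per array) were left out and spots of a probe averaged. Probes were named by RefSeq accession through a GRCm38.p6 gene table, which gave 27507 probes. Headers name mm9 for the design, and probe coordinates were not used. Levels average those probes of a gene that passed the scanner's background call on 1 array or more, and a difference needs a passing probe on each array compared. The number of arrays limits the precision.

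Members were named where at least 1.5-fold apart or among the largest differences (4 each way against WT, 3 between knockouts, 1 per structural class); Psmb1, Psmb5, Psmb6, Psmb7, Psme1, Psme2, Psmf1 and Psmc3ip always. Members outside this rule, such as Psma5, Psma8, Psmb11 and Psmd1, are named where a count is spelled out, and were chosen after their values were seen. Steps were tested on simulated data. Python 3.11.15, pandas 2.3.3 and limma 3.58.1 were used, the last for normexp (offset 50) on median spot intensity, per the deposited columns.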

Additional observations from a re-analysis of the deposited data

How the results depend on the processing

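The count of members at least 1.5-fold apart was 1, 2 and 2 and their median -0.11, -0.23 and -0.13 (Dll1-/- against WT, Rbpj-/- against WT, Rbpj-/- against Dll1-/-). Of all genes 4.2%, 11.8% and 11.6% were that far apart. No median changed sign under any setting run. Scaled to the array median, the medians were -0.39 for Rbpj-/- cells and -0.25 between knockouts. The Rbpj-/- count was then 6, where 1778 of 11578 genes passed 1.5-fold. Scaled to the mean of the E1A spike-in spots, the medians were -0.28, -0.81 and -0.55 and the last 2 counts 44 and 17. Beside these 2 counts, 7072 of 11578 and 3678 of 11794 genes passed 1.5-fold, so most members passed along with a shift of the whole array. One of 8 spike-in probes ran against the others, at -0.63 in Rbpj-/- cells where they lay at 0.72 to 0.80, so their median was added after seeing the data: medians -0.32, -0.97 and -0.67, counts 2, 44 and 35. Passing 1.5-fold on that scale were 819 of 11811, 9008 of 11578 and 5725 of 11794 genes. After normexp with quantile normalization the medians were -0.024, -0.056 and -0.027 and the last count 1. There 112 of 11811, 493 of 11578 and 594 of 11794 genes passed 1.5-fold. The Dll1-/- count was again 1, but that member was Psme3, higher at 0.59, in place of Psmf1, which was at -0.33. With no filter on dim probes the Dll1-/- count was 3 of 47, against 2489 of 20886 genes. With the higher-numbered rows alone the count between knockouts was 1 of 24 members measured there, against 749 of 6822 genes. Without Psmc3ip and Psme3ip1 the last 2 counts were 1 and 1. The fewer genes account for both of these drops. The median and spike-in scalings subtract a constant from each array, so they moved medians and counts by construction. In the unfiltered Dll1-/- count, the added members were Psma8 and Psmb11, neither well above background in those cells. The cause of the remaining changes, such as those after quantile normalization, was not tested. Without the filter the median of all genes in Dll1-/- cells was -0.11, equal to that of the members. Using the brightest probe, probes well above background on all 3 arrays, or the deposited log2 table moved none of the 6 counts and medians of the members by more than the spread between repeated spots. No member at least 1.5-fold apart changed sign under any setting. Of 60 values of single named members, 9 changed sign after quantile normalization, 4 under median scaling, 7 and 8 under the spike-in scalings, and 1 of 42 with the higher-numbered rows alone. Those members were mostly named for large differences, so these counts do not cover the other members. Over all 45 members, quantile normalization lowered the number below WT from 38 to 27 in Dll1-/- cells and from 44 to 33 in Rbpj-/- cells. No paired analysis was possible because each genotype has 1 array. No spread between mice can be estimated, and the dim probe of Psmf1 gave smaller differences under normexp.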
